A study of Mus musculus with 6 samples.

Results

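The genes described are 33 genes of lysosomal hydrolases and membrane proteins, named by symbol. A gene counted as measured where a probe set of the array (the group of short DNA probes that together read 1 transcript) carried exactly 1 gene symbol and that symbol was on the list. Where a gene had several such probe sets, the brightest on average was used. This gave 32 measured genes of 22180 genes tested. The gene left out was Glb1, which encodes the lysosomal beta-galactosidase, because its probe set also carries the symbol Tmppe. The question was which of these genes follow the myeloid content of the cultures from array to array, and whether they differ between the mouse groups.

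Myoepithelial cells, the contractile cells around the secretory units of a gland, were cultured from exorbital lacrimal glands, and their total RNA was hybridised to 6 Affymetrix Mouse Gene 2.0 ST arrays. The TSP1 null group (3 arrays) came from female mice lacking thrombospondin-1, a secreted matrix protein encoded by Thbs1, and the wild-type group (3 arrays) from female C57BL/6J mice. The sources used here do not give the age of the mice or the strain background of the null group, which the titles spell TSP1-1. All cultures were untreated and were grown for about 2 to 3 weeks in medium with 10% serum, and the labels describe no sorting of the cells. The titles number biological replicates but do not say whether each had its own animal or culture, so a p-value covers only the spread among these arrays, which may be technical. Values are log2 signals, on which a difference of 1 is a doubling, and signals of different genes cannot be ranked against each other. Thbs1 read 12.73, 13.03 and 13.00 on the null arrays and 13.51, 13.75 and 13.54 on the wild-type arrays, a difference of -0.68 (SE 0.13, limma adjusted p = 0.25). Its probe set kept a bright signal in the null group, and how its probes lie relative to the null allele is not known here.

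The lysosome is an acidic compartment in which proteins, glycans and lipids are broken down. Its hydrolases are made in the secretory pathway, and many of them are delivered by mannose 6-phosphate receptors, while membrane proteins such as LAMP1 and LAMP2 line its limiting membrane. Nearly every cell type has lysosomes, but macrophages, which digest what they engulf, hold many of them. TFEB is a transcription factor that activates many lysosomal genes through the CLEAR element, a promoter sequence built around CACGTG.

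The cultures differed in macrophage marker signal. The marker level of an array was the mean log2 signal of 20 macrophage genes, none of which encodes a lysosomal protein of the lists used here (among them Adgre1, Csf1r, C1qa and Tyrobp). It was 8.76, 9.57 and 7.0 on null arrays 1, 2 and 3 and 9.35, 10.11 and 10.29 on wild-type arrays 1, 2 and 3. The third null array lay far below the other 5, and the second null array lay above the first wild-type array, so the groups overlapped. All 20 markers had a lower mean in the null group. In RNA from a whole culture, fewer macrophages and less RNA per macrophage cannot be told apart. The contractile markers of the labelled cell type lay between 10.86 and 11.17 on the 6 arrays, with Acta2, smooth muscle actin, between 13.85 and 14.01. The mean level of 6 basal epithelial markers was 6.57, 6.60 and 6.25 on the null arrays and 5.94, 6.06 and 6.21 on the wild-type arrays, a little above the array medians of 5.25 to 5.32. By this mean all null arrays were above all wild-type arrays. For 3 of the 6 genes the null arrays lay wholly above, against 10.1% of all genes. Between groups 0 of them passed in limma, and Trp63 (4.47 to 4.93) was below the medians. Fibroblast markers were highest on the first wild-type array (11.00) and lay between 9.63 and 10.61 on the others. Lymphocyte markers (4.57 to 4.77) and acinar markers (4.59 to 4.70) were below the array medians. The mean level of 7 endothelial markers was 5.30, 5.32 and 5.04 on the null arrays and 5.19, 5.95 and 5.61 on the wild-type arrays. On the third null and the first wild-type array it lay below the array median. Their median slope on the macrophage marker level was 0.17, and 0 of 7 were called. At an unadjusted p under 0.05 in limma there were 3 of 7, against 9.47% of the genes other than the markers. The part of the basal and endothelial content in the results below was not tested.

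Promoter sequences of 5 of the genes are shown because they hold, or lack, the CACGTG core through which TFEB acts on lysosomal genes, and because these genes differ in how far they followed the marker level. The sequences are the 250 bases before the gene's start in RefSeq, build GRCm38.p6, printed in the direction of the gene. They are chr7:88277835-88278084 (plus strand) for Ctsc, chr7:142387828-142388077 (minus strand) for Ctsd, chr8:3500269-3500518 (plus strand) for Mcoln1, chr8:13158911-13159160 (plus strand) for Lamp1 and chr11:101069844-101070093 (plus strand) for Naglu. Capitals mark CACGTG and, on either strand, GAGGAAGT, a sequence bound by the myeloid transcription factor PU.1.
Ctsc: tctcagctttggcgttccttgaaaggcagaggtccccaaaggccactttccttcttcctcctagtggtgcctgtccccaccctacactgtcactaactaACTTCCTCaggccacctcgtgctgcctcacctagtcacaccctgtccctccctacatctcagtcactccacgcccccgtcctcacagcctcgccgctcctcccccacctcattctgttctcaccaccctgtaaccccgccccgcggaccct
Ctsd: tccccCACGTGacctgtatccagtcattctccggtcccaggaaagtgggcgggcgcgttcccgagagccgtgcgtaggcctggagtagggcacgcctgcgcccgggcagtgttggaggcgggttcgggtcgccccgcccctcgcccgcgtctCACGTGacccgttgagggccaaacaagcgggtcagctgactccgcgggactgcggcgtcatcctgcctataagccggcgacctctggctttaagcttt
Mcoln1: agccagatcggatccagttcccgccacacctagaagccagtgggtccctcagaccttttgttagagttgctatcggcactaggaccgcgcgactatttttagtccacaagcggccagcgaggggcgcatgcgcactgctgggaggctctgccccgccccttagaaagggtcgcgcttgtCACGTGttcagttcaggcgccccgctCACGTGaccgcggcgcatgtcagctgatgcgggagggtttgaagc
Lamp1: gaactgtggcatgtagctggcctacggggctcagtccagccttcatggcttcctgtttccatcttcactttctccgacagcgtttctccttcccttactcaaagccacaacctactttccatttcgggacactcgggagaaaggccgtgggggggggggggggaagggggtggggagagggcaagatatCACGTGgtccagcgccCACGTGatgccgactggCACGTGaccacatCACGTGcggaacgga
Naglu: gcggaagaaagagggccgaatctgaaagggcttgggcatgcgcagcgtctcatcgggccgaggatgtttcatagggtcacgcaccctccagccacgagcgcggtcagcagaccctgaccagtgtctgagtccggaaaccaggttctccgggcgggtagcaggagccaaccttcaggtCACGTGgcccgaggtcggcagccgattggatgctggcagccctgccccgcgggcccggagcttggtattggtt
In windows from 250 bases before to 50 bases after the start, 29 of the 33 genes were in the RefSeq table. Ctsb, Ctsh, Galns and Npc1 were not, so the motif counts and the slopes compared by motif leave them out. Of these 29, 11 had a CACGTG (37.9%), against 7.15% of all 32851 windows and 8.09% of all genes in the table. Lamp1 had 4 of them, all shown above. TCACGTGA, a longer form that contains CACGTG, was found in Ctsa, Ctsd, Gla and Mcoln1, and in 0.974% of all windows. The same letters with a G before and a C after them were in none of the 29 and in 0.326% of all windows. GAGGAAGT was found in Ctsc, Gla and Gusb, and in 3.20% of all windows. Both strands were searched. A match is a string of letters and was not tested as a binding site. The 10 measured genes with a CACGTG had slopes on the marker level, described next, from -0.037 to 0.35 with a median of 0.13, and the 18 without one from -0.034 to 0.79 with a median of 0.14.

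Of the 32 genes, 4 rose with the macrophage marker level over the 6 arrays: Ctsc, Ctsb, Lgmn and Man2b1. A slope of 1 means that a gene's signal changed in proportion to the markers' mean signal, and a slope of 0 that it did not move with it. The test was limma, fitted across all genes, with a Benjamini-Hochberg adjusted p under 0.05. The called share of the lysosomal genes was 12.5%, against 1.21% of the 22160 genes other than the markers that had a positive slope and passed. For negative slopes it was 0 of 32, against 0.0406%. The median slope was 0.14 for the lysosomal genes and -0.008 for all genes tested, and 27 of 32 had a positive slope (84.4%), against 46.0% of all genes. At an unadjusted p under 0.05 there were 12 of 32 (37.5%), against 9.47% of the genes other than the markers. These calls rested on the third null array. Without it, 0 of the 32 genes and 0 of all genes passed in limma, the 20 markers included (smallest adjusted p = 0.0622), and with 5 arrays 12 lysosomal genes (37.5%) had an unadjusted p under 0.05, against 7.33% of the genes other than the markers. The calls of Ctsb and Ctsc were lost in no other fit that left out 1 array. Lgmn was also lost without the first null, the second wild-type or the third wild-type array, and Man2b1 passed only with all 6 arrays or without the first wild-type array. Without the third null array the slopes themselves were steeper for 27 of the 32 genes, with a median of 0.26. They were also less precise. The marker level then spanned 1.53 log2 units in place of 3.28, and the SE of Ctsb was 0.11 in place of 0.048. The share of all genes with steeper slopes was not computed.

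**Figure D1:**
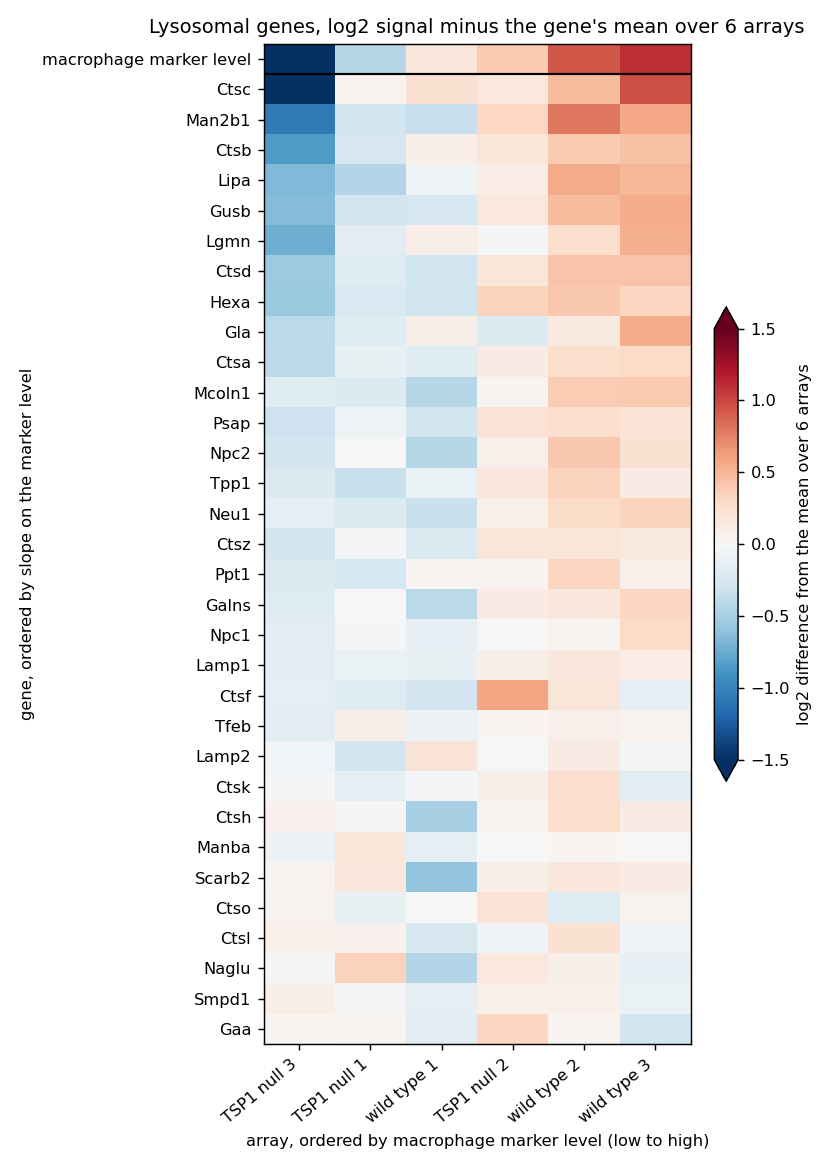
Log2 signal of the 32 measured lysosomal genes on the 6 arrays, each as the difference from the gene's mean over the arrays (colour, cut at -1.5 and 1.5), with the macrophage marker level in the top row and arrays ordered by it. Genes are ordered by slope, so the upper rows change colour from left to right with the markers, while the lower rows, from Ctsk to Gaa, do not.

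Cysteine proteases held the steepest slope of all the lysosomal genes and some of the flattest. Cathepsin C (Ctsc) is a dipeptidyl peptidase that activates the granule proteases of immune cells. It read 10.45, 10.56 and 8.51 on the null arrays and 10.63, 10.88 and 11.36 on the wild-type arrays. The third null array was lowest by a wide margin, and the other 5 lay within a log2 unit of each other. Its slope was 0.79 (SE 0.084, n = 6 arrays, limma adjusted p = 0.0021), with a Pearson r of 0.97, and without the third null array the slope was 0.51 (SE 0.16). Cathepsin B (Ctsb), an abundant endo- and carboxypeptidase, read 13.17, 13.60 and 12.57 against 13.52, 13.82 and 13.86. Its 6 values fell in the same order as the marker level. The slope was 0.40 (SE 0.048, adjusted p = 0.0041) and 0.44 (SE 0.11) without the third null array. Legumain (Lgmn), which cuts after asparagine and processes cathepsins, read 11.09, 11.23 and 10.51 against 11.34, 11.51 and 11.79. Every null array was below every wild-type array. Its slope was 0.35 (SE 0.056, adjusted p = 0.021), or 0.40 (SE 0.13) without the third null array.

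The other 6 cysteine proteases were not called, with slopes from -0.016 to 0.14. They were Ctsz, a carboxypeptidase (0.14, SE 0.059), Ctsf (0.082), Ctsk, the collagen-degrading enzyme of osteoclasts (0.031), Ctsh, an aminopeptidase (0.023), Ctso (-0.013) and Ctsl, a widely expressed endopeptidase (-0.016). Ctsl ran from 11.58 to 12.05 and Ctsk from 9.38 to 9.80 over the 6 arrays, with the third null array inside both ranges. Ctsh had its lowest signal, 9.90, on the first wild-type array and lay between 10.41 and 10.66 on the other 5.

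**Figure D2:**
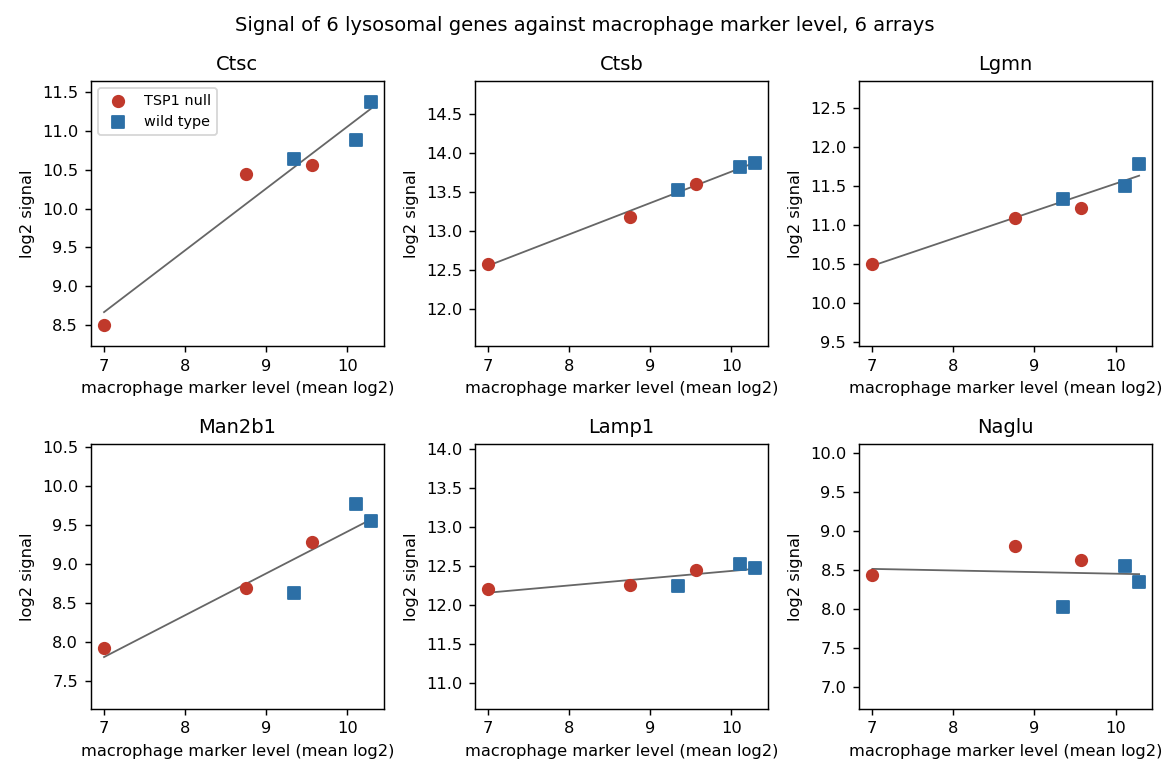
Log2 signal of 6 lysosomal genes against the macrophage marker level (mean log2 signal of 20 markers) for 3 TSP1 null (circles) and 3 wild-type (squares) arrays, with the least-squares line over the 6 arrays; each vertical axis spans the same number of log2 units. Ctsc, Ctsb, Lgmn and Man2b1 climb with the markers at slopes of 0.79, 0.40, 0.35 and 0.54, while Lamp1 (0.093) and Naglu (-0.021) are nearly level.

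Among aspartic and serine proteases, cathepsin D (Ctsd), the main aspartic protease of the lysosome, read 12.59, 12.97 and 12.24 on the null arrays and 12.49, 13.21 and 13.21 on the wild-type arrays. The first wild-type array was lower than 2 of the null arrays. Its slope of 0.30 (SE 0.071, adjusted p = 0.138) did not pass. Ctsa, a carboxypeptidase that also protects beta-galactosidase and neuraminidase, had 0.21 (SE 0.057), and Tpp1, a tripeptidyl peptidase, had 0.15 (SE 0.0695). All 3 had positive slopes and 0 were called.

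Glycosidases and the sulfatase spread from 0.54 to -0.037, and 1 of 9 measured genes was called. Man2b1, the lysosomal alpha-mannosidase, read 8.69, 9.28 and 7.92 against 8.62, 9.76 and 9.55. The third null array was lowest, and the first wild-type array lay with the null arrays. The slope was 0.54 (SE 0.086, adjusted p = 0.022), or 0.73 (SE 0.18) without the third null array. Gusb, the beta-glucuronidase, read 9.80, 10.24 and 9.43 against 9.83, 10.56 and 10.64, in the same order as the marker level. Its slope of 0.37 (SE 0.072, adjusted p = 0.0625) fell just outside the threshold. Hexa (0.30, a subunit of beta-hexosaminidase) and Gla (0.23, the alpha-galactosidase) were also positive and not called. Neu1 (0.14, a sialidase) and Galns (0.13, a sulfatase of keratan sulfate breakdown) were lower still.

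At the flat end of this fit, which had no group term, were 3 glycosidases. Manba, the beta-mannosidase, had a slope of 0.019 and stayed between 8.11 and 8.41. Naglu, which removes N-acetylglucosamine from heparan sulfate, read 8.81, 8.63 and 8.44 on the null arrays and 8.03, 8.56 and 8.35 on the wild-type arrays. Its highest value was on the first null array and its lowest on the first wild-type array. Gaa, the glucosidase that degrades glycogen, read 9.83, 10.10 and 9.81 against 9.62, 9.83 and 9.50. Its slope was -0.037 (SE 0.075), the lowest of the 32.

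Of the genes of lipid breakdown and transfer, Lipa, the acid lipase that releases cholesterol from its esters, had the steepest slope. It read 11.51, 12.05 and 11.29 on the null arrays and 11.88, 12.51 and 12.44 on the wild-type arrays, with the second null array inside the wild-type range. The slope of 0.38 (SE 0.071, adjusted p = 0.0515) lay just outside the threshold, and it was 0.66 (SE 0.12) without the third null array. Psap, the precursor of the saposins, and Npc2, a soluble cholesterol carrier, both had 0.16 (SE 0.0664 and 0.0835). Ppt1, which removes fatty acids from proteins, had 0.14. Smpd1, the acid sphingomyelinase, read 9.23, 9.32 and 9.35 against 9.12, 9.32 and 9.14, a span of 0.23 over the 6 arrays, and had a slope of -0.034 (SE 0.054).

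Membrane proteins had shallow slopes, and 0 of 5 were called, with slopes from 0.0097 to 0.17 and 0 at an unadjusted p under 0.05. Lamp1, a major glycoprotein of the lysosomal membrane, read 12.26, 12.44 and 12.21 on the null arrays and 12.25, 12.53 and 12.47 on the wild-type arrays. These 6 values span 0.32, and the slope was 0.093 (SE 0.052, adjusted p = 0.65). Lamp2, its relative with a part in autophagy, read 11.44, 11.73 and 11.68 against 11.92, 11.85 and 11.71, with its highest value on the first wild-type array and a slope of 0.049 (SE 0.065). Mcoln1, a calcium-permeable channel, read 8.93, 9.18 and 8.96 against 8.71, 9.53 and 9.54. The first wild-type array was lowest and the other 2 highest, and the slope was 0.17 (SE 0.091), or 0.50 (SE 0.16) without the third null array. Scarb2, the receptor that carries glucocerebrosidase to the lysosome, read 9.51, 9.43 and 9.38 against 8.75, 9.51 and 9.46, so that only the first wild-type array stood apart. Npc1, the cholesterol exporter, ran from 9.32 to 9.79 (slope 0.10, SE 0.056).

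Tfeb itself was dim, at 5.01, 4.94 and 4.74 on the null arrays and 4.82, 4.98 and 4.95 on the wild-type arrays. All 6 values were below the array medians, where this kind of processing compresses differences. Its slope was 0.062 (SE 0.052).

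**Figure D3:**
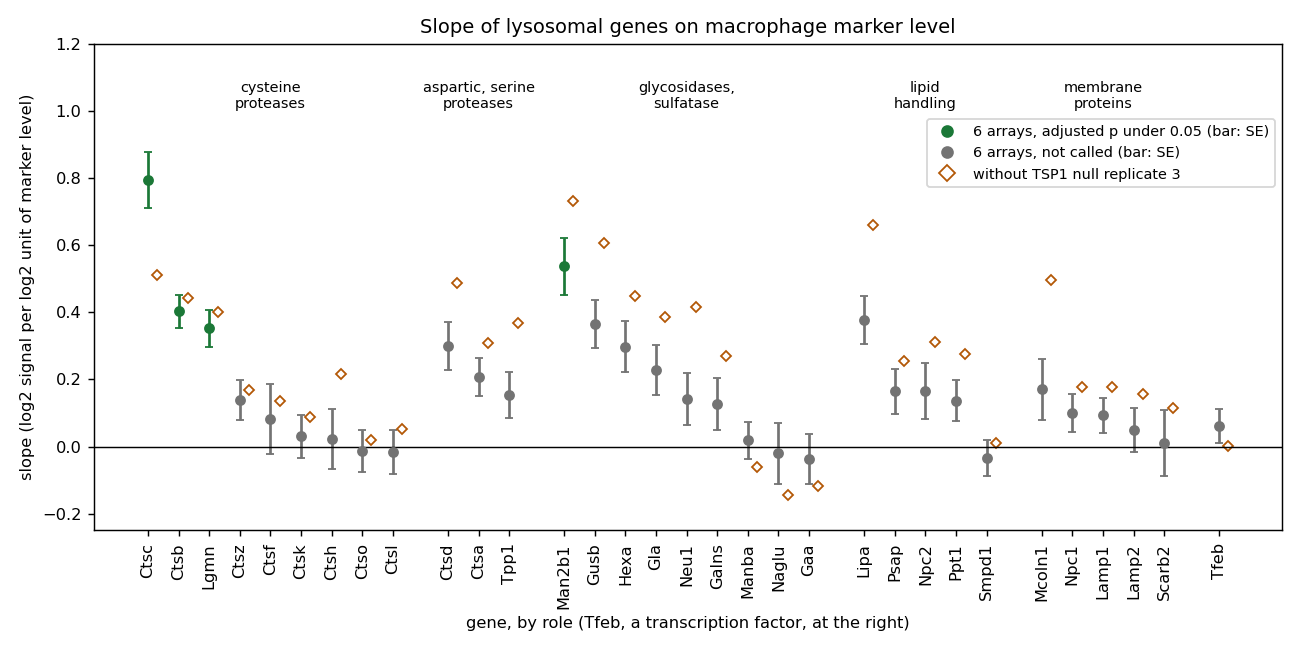
Slope of each of the 32 lysosomal genes on the macrophage marker level (log2 signal per log2 unit of marker level), grouped by role, with its standard error from 6 arrays (green where called, grey where not) and the slope without the third null array (open diamonds). Ctsc, Ctsb, Lgmn and Man2b1 are the called genes, membrane proteins lie below 0.2 with 6 arrays, and most diamonds lie above the filled points.

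Correlations over the 6 arrays were also computed for all 22180 genes. Pearson r with the marker level was over 0.8 for 11 of the 32 genes, against 4.44% of the genes other than the markers. It was 0.996 for Ctsb (exact permutation p = 0.00139 over 720 pairings, the smallest possible, adjusted p = 0.18) and 0.97 for Ctsc (exact permutation p = 0.0028, adjusted p = 0.206), and Spearman's rho was 1 for Ctsb (exact permutation p = 0.0028, adjusted p = 0.283) and 0.943 for Ctsc (exact permutation p = 0.0167, adjusted p = 0.444). By this test 0 of all genes passed after adjustment over all genes. With no p below 0.00139, a gene could pass only if very many genes reached the smallest values. The test could therefore hardly call a gene, and nothing follows from the 0. The 2 arrays farthest from the median marker level, the third null and the third wild-type array, were then left out. Over the 4 arrays left, r was 0.992 for Ctsb, 0.921 for Ctsc, 0.876 for Man2b1 and 0.906 for Lgmn. This was not particular to the called genes. Lipa had 0.996, Ppt1 0.985, Ctsk 0.984 and Tpp1 0.977, while others were low or negative, such as Manba at -0.41. The share over all genes was not computed for these 4 arrays.

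The mean marker level was lower in the null group (8.44 ± 1.31 against 9.92 ± 0.50, SD, n = 3), with overlapping arrays and 0 of 20 markers called between groups in limma. The slope was therefore also fitted within groups, with the group as a second term and 3 residual degrees of freedom. Of the 32 genes, 1 passed, against 0.537% of the genes other than the markers. It was Ctsc, with a slope of 0.82 (SE 0.12, limma adjusted p = 0.038), and it did not pass without the second or the third null array or without the third wild-type array (slopes of 0.44 to 0.99 over the 6 fits that leave out an array). Man2b1 had 0.60 (adjusted p = 0.152), Ctsb 0.39 (adjusted p = 0.0853) and Lgmn 0.30 (adjusted p = 0.331). At an unadjusted p under 0.05 there were 11 of 32, against 5.94% of the genes other than the markers. Slopes within groups were positive for 30 of the 32 genes, against 11145 of all 22180 genes. Some genes that were flat without the group term had larger slopes here, none of them called. They were Ctsf (0.24, SE 0.12), Naglu (0.14, SE 0.096), Scarb2 (0.13, SE 0.12) and Gaa (0.081, SE 0.085). Others stayed near 0, such as Ctsl (0.0029) and Smpd1 (-0.0027).

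Other lysosomal genes were read in 8 lists. Among 10 lysosomal genes known from myeloid cells, 7 rose with the marker level, against 1.21% of the genes other than the markers, with a median slope of 0.87. These genes were listed for their tie to myeloid cells, so a high count was to be foreseen and is given as a description. Ctss, the cathepsin of antigen-presenting cells, read 10.35, 11.08 and 8.51 on the null arrays and 10.83, 11.80 and 11.89 on the wild-type arrays. Its slope was 1.03 (SE 0.051). Laptm5, a lysosomal protein of blood cells, had 0.87 (SE 0.050), and Lyz2, a lysozyme, had 0.90 (SE 0.054). These 3 slopes were steeper than that of any of the 32 genes, Ctsc included. Acp5, Ctse and Slc29a3 were the 3 not called, with slopes of 0.14, -0.030 and 0.12.

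In the other 7 lists together, 4 of 96 measured genes were called (4.17%), against 1.21% of the genes other than the markers, and 19 of 96 had an unadjusted p under 0.05 (19.8%), against 9.47%. Of 14 measured subunits of the V-ATPase, the proton pump that acidifies the lysosome, 0 were called and 5 had an unadjusted p under 0.05. The median slope was 0.14, and Atp6v1b2 had the smallest p (slope 0.24, SE 0.061, adjusted p = 0.162). Of 9 genes of mannose 6-phosphate sorting 1 was called, Nagpa (0.30, SE 0.053), which encodes the enzyme that uncovers the mannose 6-phosphate tag, while the receptor gene M6pr had 0.071. None of 17 other measured hydrolases was called, with 4 at an unadjusted p under 0.05 and Galc, the galactosylceramidase, at 0.37 (SE 0.083, adjusted p = 0.107). Of 18 other membrane proteins 1 was called, Cln3 (0.49, SE 0.068). Of 17 genes of TFEB relatives and their control by mTORC1, 2 were called, Fnip2, a folliculin partner (0.51, SE 0.062), and Rragd, a Rag GTPase (0.35, SE 0.058). Of 7 cathepsin inhibitors 0 were called, with 1 at an unadjusted p under 0.05, Cstb (0.24, SE 0.065, adjusted p = 0.202). Of 14 autophagy genes 0 were called, with 1 at an unadjusted p under 0.05, Map1lc3b (0.16, SE 0.067, adjusted p = 0.502). None of these lists had a called gene with a negative slope. The median slopes of these lists other than the V-ATPase lay between 0.029 and 0.082.

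Between the groups, 0 of the 32 genes passed (limma, null minus wild type, adjusted over all genes), as did 0 of all 22180 genes, a called share of 0. At an unadjusted p under 0.05 there were 4 (12.5%), against 10.6% of all genes. They were Gla, Lgmn, Lipa and Ctsb, all with lower means in the null group. An ordinary linear model called 0 of the 32 and had 1 of them at that p, against 1904 of all 22180 genes. The median difference was -0.14, against 0.02 for all genes, and 23 of 32 differences were negative (71.9%), against 44.9% of all genes. Null arrays lay wholly below wild-type arrays for 4 genes (12.5%), Ctsc, Lgmn, Gla and Ppt1, against 5.75% of all genes, and wholly above for 0, against 10.1% of all genes.

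Ctsc had the largest difference, with 9.84 ± 1.15 on the null and 10.96 ± 0.37 on the wild-type arrays (SD, n = 3), or -1.12 (SE 0.52, adjusted p = 0.505). Without the third null array it was -0.45. Man2b1 measured 8.63 ± 0.69 against 9.31 ± 0.61, a difference of -0.68 (SE 0.39), or -0.33 without that array. Lipa measured 11.62 ± 0.39 against 12.27 ± 0.34, a difference of -0.66 (SE 0.24), or -0.49 without it. For Gla the values were 9.07, 9.05 and 8.85 against 9.35, 9.38 and 9.81, and the difference of -0.52 (SE 0.15, adjusted p = 0.347) had the smallest p of the 32 and was -0.45 without the third null array. The largest positive differences were those of Naglu (0.32, SE 0.17), Gaa (0.26, SE 0.14) and Scarb2 (0.20, SE 0.21). The first wild-type array had the lowest value of all 6 for each of Naglu and Scarb2, and the third wild-type array for Gaa. Lamp1 differed by -0.11 (SE 0.13) and Tfeb by -0.02 (SE 0.12).

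The group difference was also fitted with the marker level held equal. The genes with called slopes were chosen by the marker level on these same arrays, so that smaller differences for them follow from the choice and are given as a description. Ctsc had 0.096 (SE 0.26), Man2b1 0.20 (SE 0.26), Ctsb -0.045 (SE 0.15) and Lgmn -0.16 (SE 0.16). Gla kept -0.34 (SE 0.20). Naglu had 0.52 (SE 0.21, unadjusted p = 0.040 in limma) and was the 1 gene of 32 (3.13%) at an unadjusted p under 0.05, against 6.18% of all genes. Again 0 of the 32 and 0 of all genes passed after adjustment. In an ordinary linear model 0 of the 32 had an unadjusted p under 0.05, against 1236 of all 22180 genes. Over the 32 genes the median was 0.098, against 0.023 for all genes. The difference was positive for 24 of the 32, against 12015 of all 22180 genes.

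**Figure D4:**
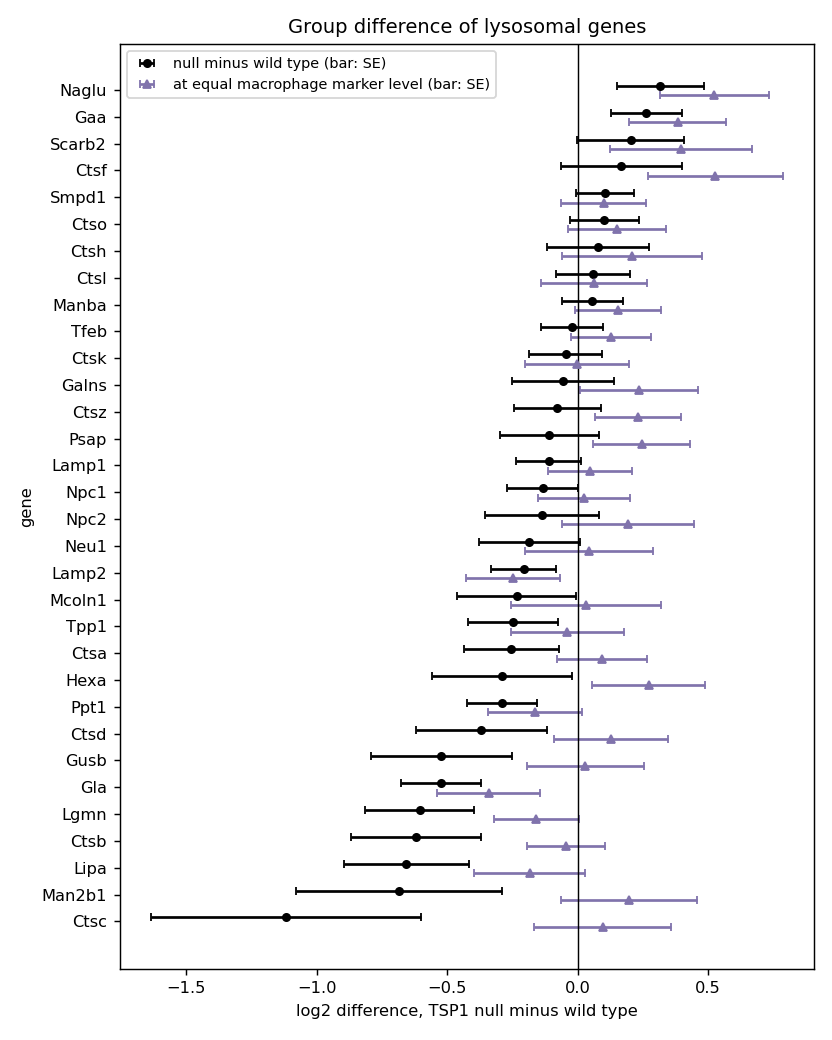
Log2 difference between TSP1 null and wild-type arrays (null minus wild type, 3 arrays each) for the 32 lysosomal genes, as measured (black circles) and with the macrophage marker level as a second term (purple triangles), with standard errors. Ctsc lies at -1.12 and 0.096 and Man2b1 at -0.68 and 0.20, genes chosen for following the marker level, and Naglu and Gaa are positive in both fits.

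The first wild-type array, highest in fibroblast markers, had the lowest signal for 11 of the 32 genes, and the third null array, lowest in macrophage markers, for 15. The second and the third wild-type array had the highest signal for 12 and 10 of them. The shares over all genes were not computed for these counts, and the part of cell content in them was not tested. With the fibroblast marker level as a second term, a fit added after the data were seen, the slopes of Ctsc, Ctsb, Lgmn and Man2b1 were still called, together with those of Gusb and Lipa. Without the first wild-type array 7 genes were called, the same 6 and Ctsd. Called slopes among the genes other than the markers numbered 278 in the main fit, 343 with the fibroblast term and 364 without that array. The part of the fibroblast content in the group differences was not tested.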

How the data were processed

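The submitters' processing notes name Partek and RMA, a method that corrects background, equalises array distributions and combines probes. No source used here names their versions or settings. The authors deposited 1 log2 value per probe set and array for 41345 probe sets, and that the scale is log2 was read from the values. RMA compresses differences of dim probe sets. The platform annotation named 1 gene on 23521 probe sets, more than 1 on 1814 and no gene on 16010. By Entrez identifier all 32 lysosomal genes matched the reference gene table (GRCm38.p6) with 0 changed symbols. Npc1 and Smpd1 have 2 probe sets each, and the brighter was used.

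Fits used limma 3.58.1 in R 4.3.3 (lmFit, eBayes, two-sided) on all 6 arrays with Benjamini-Hochberg adjustment over 22180 genes, without an intensity filter. Models were group, macrophage marker level, or both. The procedure was also run on simulated data, with outcomes not given here. Their noise was independent between genes and arrays, so the runs do not cover variation shared among genes or an outlying array. The number of arrays limits the precision. No array repeated another (correlations 0.978 to 0.988). Figures used Python 3.11.15 and matplotlib 3.10.9. Replicate numbers in the titles were treated as names.

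Genes with values on every array were Lamp1, Lamp2, Ctsb, Ctsd, Tfeb, Mcoln1, the 6 steepest and 3 lowest slopes, the 3 largest differences per direction, and called genes. From each other list came up to 3 called genes or the 1 of smallest p. Gla, M6pr and genes named in counts are outside this rule and were chosen after seeing their values. The genes, lists and motifs were chosen with earlier results of these data known.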

Additional observations from a re-analysis of the deposited data

How the results depend on the processing

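The sources give no depth or cell counts, and 6 arrays leave 3 or 4 residual degrees of freedom. The count of called slopes was 278 genes other than the markers and 4 lysosomal genes. It was 1323 and 10 with array weights, and 47 and 1 (Ctsb) with an ordinary linear model. On every deposited probe set it was 224 features and 2 lysosomal genes (Ctsb and Ctsc). Leaving out each array gave 0 to 364 genes and 0 to 7 lysosomal genes (0 and 0 without the third null array), and a median slope of 0.12 to 0.26. Without the first null, the second wild-type or the third wild-type array 2 lysosomal genes were called, Ctsb and Ctsc. Within groups the counts of 119 and 1 spanned 0 to 128 and 0 to 1 on leaving out each array. The 8 core markers gave 127 genes and 0 lysosomal genes. Between groups, 2 features were called on every deposited probe set and 0 to 34 genes when an array was left out (34 without the second null array, 1 without the first wild-type array), with 0 lysosomal genes in each. The replicate block left the slopes of 203 genes other than the markers and of 1 lysosomal gene (Ctsc) called. Same-numbered arrays did not deviate together (correlations of -0.14, 0.18 and -0.16), and 2 arrays of 6 correlated best with their own number. The median difference of -0.14 spanned -0.27 to -0.072 over the fits without 1 array. Tfeb was too dim for the fit without dim genes.

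Signs changed for values that were not called, which reached 0.20 for the group difference of Scarb2, 0.17 for that of Ctsf and 0.20 for that of Man2b1 at equal marker level. Those of the slope were Scarb2 at -0.0084 with centred arrays, -0.013 with the replicate block and -0.0032 with the fibroblast term, Naglu at 0.0034 with array weights, and Ctsf at -0.024 and Ctsk at -0.024 with the replicate block. Group differences were 0.018 for Tfeb with quantile normalization and -0.014 for Ctsh with array weights. With an array left out, slopes ran from -0.15 to 0.0038 for Naglu, -0.020 to 0.11 for Scarb2, -0.030 to 0.020 for Ctso, -0.062 to 0.032 for Manba, -0.060 to 0.054 for Ctsl, -0.021 to 0.22 for Ctsh, -0.053 to 0.011 for Smpd1, -0.011 to 0.087 for Ctsk and -0.12 to 0.020 for Gaa. Group differences ran from -0.27 to 0.089 for Galns, -0.077 to 0.059 for Tfeb, -0.14 to 0.070 for Ctsk, -0.28 to 0.018 for Psap, -0.205 to 0.046 for Ctsz, -0.018 to 0.11 for Manba, -0.085 to 0.305 for Ctsf, -0.38 to 0.032 for Npc2, -0.044 to 0.34 for Scarb2, -0.15 to 0.23 for Ctsh and -0.049 to 0.19 for Ctsl. At equal marker level they ran from -0.15 to 0.54 for Ctsc, -0.15 to 0.00089 for Ctsb and -0.13 to 0.41 for Man2b1. The cause of these changes was not tested.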

Other observations

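The 7 other lysosomal and autophagy lists were not chosen for a tie to myeloid cells. Among their 96 genes, null arrays lay wholly below wild-type arrays for 12 (12.5%), against 5.75% of all genes. They lay wholly above for 3 (3.13%), against 10.1%. Slopes on the marker level were called for 4.17% of these genes, against 1.21% of the genes other than the markers. The part of the macrophage content in these counts was not tested. The 4 named here come from 3 of these lists and were chosen after their values were seen, and neither their differences nor their slopes passed over all genes in limma. Mtor, the kinase of mTORC1, which holds back TFEB, read 8.43, 8.36 and 8.45 on the null arrays and 7.81, 7.98 and 8.0 on the wild-type arrays, with no overlap. It differed by 0.48 (SE 0.11, adjusted p = 0.29), and by 0.48 (SE 0.16) at equal marker level. Ulk1, the kinase that starts autophagy, read 9.14, 9.0 and 8.95 against 8.56, 8.67 and 8.57, a difference of 0.43 (SE 0.11, adjusted p = 0.313). Slc38a9, the lysosomal arginine sensor of mTORC1, was lower in the null group, with 7.87, 7.93 and 7.98 against 8.37, 8.44 and 8.26, a difference of -0.43 (SE 0.11, adjusted p = 0.312). Slc17a5, the sialic acid exporter, had -0.60 (SE 0.16, adjusted p = 0.321), with 9.72, 10.24 and 9.89 against 10.69, 10.47 and 10.48.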
